A study of Mus musculus with 8 samples.

Results

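Gja4, Gja5, Bmx, Nkx2-3, Sema3g, Tm4sf1, Htra1 and Efnb2 are 8 of the 28014 genes in the count table. They are described here under the name of mature arterial genes, and their level peaked in pre-HE, the pre-hemogenic endothelium of the midgestation mouse embryo. The name is that of the set. In WT, Gja5, Bmx, Nkx2-3 and Tm4sf1 averaged lower in aEC, the cluster labelled arterial endothelium, than in vEC_4, a cluster labelled venous. The other members averaged higher in aEC than in vEC_4. All 8 were chosen by their measured levels, which were highest in pre-HE, so their order across cell types is a description and carries no test. What the choice did not use is how the genes were combined within single cells, how they varied between embryo pools, and whether they differed between genotypes.

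Arteries acquire their identity early in the embryo, under vascular endothelial growth factor, Notch signaling and blood flow, and mature arterial endothelium is known for gap junctions that couple neighboring cells and for ephrin and semaphorin signals that set arteries apart from veins. Blood stem cells later bud from the ventral wall of the dorsal aorta, and the endothelium that precedes them keeps an arterial character before it loses endothelial genes in the endothelial-to-hematopoietic transition (EHT). Among the 8 genes, Gja4 and Gja5 encode connexins, the subunits of gap junctions. Efnb2 encodes an ephrin ligand of arterial endothelium whose receptor is the venous EphB4, and Sema3g encodes a secreted semaphorin. Bmx is a cytoplasmic tyrosine kinase of the Tec family, Nkx2-3 a homeobox transcription factor, Tm4sf1 a small protein that spans the membrane of endothelial cells, and Htra1 a secreted serine protease.

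Cells carrying the endothelial surface protein CD31 had been sorted from the aorta-gonad-mesonephros region (AGM) at E10.5, and their RNA was counted cell by cell together with antibody tags (CITE-seq). There were 5 libraries of WT embryos, labelled as strain C57BL/6, and 3 of Mff_Cre embryos, labelled Meis1-flox/VE-Cre, in which loxP sites flank exon 8 of Meis1 and Cre is driven by the VE-Cadherin (Cdh5) promoter. Each library was a pool of 2 to 5 embryos, and Cre under that promoter also acts in blood cells descended from endothelium. The authors use WT also for littermates without Cre, and which WT libraries carried floxed alleles is not given in the sources used here.

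The 8 genes lie on 7 chromosomes of the mouse genome, and all 8 were matched to RefSeq annotation of build GRCm38.p6. Gja5 spans chr3:97032402-97053634 on the plus strand and Tm4sf1 chr3:57285611-57387736 on the minus strand. Gja4 lies at chr4:127311420-127314039 (minus), Htra1 at chr7:130936203-130985658 (plus) and Efnb2 at chr8:8617235-8661242 (minus). Sema3g lies at chr14:31217873-31230352 (plus), Nkx2-3 at chr19:43612325-43615892 (plus) and Bmx at chrX:164192842-164258193 (minus).

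The stretch just before each gene's start was searched on both strands for 2 motifs, because the deleted gene encodes a Meis factor and because Notch acts through Rbpj. The Meis motif searched was TGACAG, with CTGTCA on the other strand, and the Rbpj motif was TGGGAA, with TTCCCA on the other strand. Within 250 bases before and 50 after the start, 2 of the 8 genes, Efnb2 and Sema3g, held the Meis motif, as did 19.2% of all 32851 RefSeq promoters. The Rbpj motif was held by 3 of the 8, Bmx, Nkx2-3 and Sema3g, and by 25.6% of all promoters. The 250 bases before the start of the 4 genes with either motif are shown 5′ to 3′ on the strand of the gene, with every match in capitals. The positions are chr8:8661243-8661492 for Efnb2, chr14:31217623-31217872 for Sema3g, chr19:43612075-43612324 for Nkx2-3 and chrX:164258194-164258443 for Bmx.
Efnb2: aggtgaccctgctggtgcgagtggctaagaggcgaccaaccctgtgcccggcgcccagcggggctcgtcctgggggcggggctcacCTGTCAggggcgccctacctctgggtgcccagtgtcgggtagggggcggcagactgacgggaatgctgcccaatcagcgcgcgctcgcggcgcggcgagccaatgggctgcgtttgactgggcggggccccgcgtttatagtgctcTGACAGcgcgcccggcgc
Sema3g: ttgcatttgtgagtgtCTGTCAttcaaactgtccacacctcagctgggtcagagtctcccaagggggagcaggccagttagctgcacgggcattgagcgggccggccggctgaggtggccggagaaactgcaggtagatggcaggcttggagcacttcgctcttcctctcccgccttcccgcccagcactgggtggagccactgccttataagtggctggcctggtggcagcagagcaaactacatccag
Nkx2-3: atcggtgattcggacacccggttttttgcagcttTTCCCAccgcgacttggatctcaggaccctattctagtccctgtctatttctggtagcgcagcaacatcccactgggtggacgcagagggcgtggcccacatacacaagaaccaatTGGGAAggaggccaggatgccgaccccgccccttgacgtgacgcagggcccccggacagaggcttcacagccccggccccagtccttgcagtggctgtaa
Bmx: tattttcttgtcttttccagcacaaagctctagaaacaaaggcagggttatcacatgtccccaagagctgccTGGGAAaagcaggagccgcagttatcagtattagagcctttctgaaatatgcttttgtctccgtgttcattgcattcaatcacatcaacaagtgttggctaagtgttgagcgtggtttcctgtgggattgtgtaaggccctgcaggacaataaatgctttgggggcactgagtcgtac
Efnb2 held the Meis motif 2 times, and the copy nearest to the gene began 18 bases before its start. In Sema3g the Meis motif began 234 bases before the start, and its Rbpj match lay after the start and is not shown. Sox motifs were also searched: ACAAAG was found in Bmx and Gja5 (18.7% of all promoters) and ACAAT in Bmx and Gja4 (31% of all promoters). The Ets motifs CAGGAAG and CCGGAAG were found in 0 of the 8 windows and in 13.3% and 8.86% of all promoters. Such matches describe the letters of these windows only.

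Total counts of unique molecular identifiers (UMIs, one per captured RNA molecule) ranged from 20484881 to 79429129 per library. Median UMIs per cell were 26572 to 28553 in WT 1 to WT 4 and 9612 to 14895 in WT 5 and the Mff_Cre libraries, and the CD44 tag was recorded in the latter 4 libraries only. Depth and tag panel therefore separated 4 of the 5 WT libraries from the Mff_Cre libraries, and genotype differences are given with WT 5 alone as well. Of 15135 barcodes, 33 occurred in more than 1 library. Meis1 itself was read in pre-HE at 38.7, 51.4, 32.4, 23.7 and 12.9 CPM (counts scaled to a common library total) in WT 1 to WT 5, against 29.7, 9.57 and 53.0 CPM in Mff_Cre 1 to 3. The genotypes overlapped, and because the libraries read the end of the transcript, outside the floxed exon, this level does not check the deletion.

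Pre-HE held 248 of the 15168 cells, with 11 to 87 cells per WT library and 15 to 33 per Mff_Cre library. The label was checked against marker lists. All 8 endothelial markers were detected, summing to 3637 to 4296 CPM in WT and 3484 to 4069 CPM in Mff_Cre libraries, and the 6 hemogenic and blood markers summed to 28.0 CPM at most, with Ptprc at 0 in both genotypes. Of the 8 mural markers, Myh11, Pdgfrb, Cspg4 and Des were at 0 in both genotypes while Acta2, Tagln and Cnn1 were detected in both, and Rgs5 in WT only. The summed mural level was 121 to 757 CPM in WT pre-HE and 866 to 2034 CPM in Mff_Cre pre-HE, compared with 13.3 CPM at most in aEC, the cluster labelled arterial endothelium. In EHT the mural sum was 64.4 to 167 CPM in WT and 86.0 to 190 CPM in Mff_Cre libraries. Mesenchyme markers reached 23.9 CPM and lymphatic markers 35.4 CPM, and the 5 venous markers summed to 32.4 to 270 CPM in WT pre-HE against 323 to 448 CPM in WT aEC. The highest of these pre-HE values was that of WT 5, where Nr2f2 was at 51.5 CPM and both Nrp2 and Aplnr at 57.9 CPM, against at most 1.84, 9.57 and 14.85 CPM in the other 7 libraries. The part of these cell types in the levels below was not tested.

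Both connexin genes were highest in pre-HE, and Gja4 also had a clear level in aEC. Gja4 was read in pre-HE at 1570, 1662, 1478, 1504 and 1159 CPM in WT 1 to WT 5 and at 1252, 1211 and 1415 CPM in Mff_Cre 1 to 3. In aEC it was read at 88.5 to 261 CPM in WT and 93.1 to 159 CPM in Mff_Cre libraries. The lowest pre-HE library thus stood above the highest aEC library, and aEC in turn stood above EHT in every WT library, where Gja4 was 33.7 ± 17.4 CPM (SD, n = 5). From EHT downward the order of Gja4 in WT (EHT, vEC_1, Megakaryocytes, vEC_4) was of neighbors whose libraries overlapped.

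Gja5 followed a sharper course. Its pre-HE level was 466, 714, 428, 463 and 431 CPM in WT 1 to WT 5 and 490, 302 and 442 CPM in Mff_Cre 1 to 3. In aEC it was 2.17 ± 1.92 CPM (SD, n = 5) in WT and 1.46 ± 1.51 CPM (SD, n = 3) in Mff_Cre libraries, and in EHT 6.07 ± 2.85 and 5.18 ± 3.52 CPM. In vEC_4 it was 4.61 ± 3.73 CPM in WT, and these WT libraries overlapped with those of EHT and with those of aEC. The other connexin, Gja4, therefore marked aEC and pre-HE at different levels while Gja5 was close to absent from cells labelled aEC, where 48 Gja5 UMIs were counted over the 5 WT libraries against 3066 of Gja4. Summed over all 8 libraries, the CPM in pre-HE was 182-fold that in aEC for Gja5 and 8.64-fold for Gja4.

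The 2 guidance genes were the least concentrated in pre-HE. Efnb2 was read in pre-HE at 363, 285, 292, 260 and 386 CPM in WT 1 to WT 5 and at 441, 249 and 327 CPM in Mff_Cre 1 to 3. Every endothelial cluster carried it: WT levels were 53.3 ± 9.58 CPM in aEC, 35.4 ± 3.27 in vEC_1 and 25.9 ± 4.76 in vEC_4 (SD, n = 5 each), and the lowest was 23.4 ± 2.46 CPM in vEC_3. The aEC libraries stood above those of vEC_1, whereas vEC_1, vEC_2, vEC_4 and vEC_3, in that order, overlapped with their neighbors.

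Sema3g was read in pre-HE at 101, 131, 149, 96.5 and 77.2 CPM in WT 1 to WT 5 and at 89.1, 81.4 and 79.6 CPM in Mff_Cre 1 to 3. Its second level, in aEC, was 23.3 ± 3.71 CPM in WT (SD, n = 5) and 22.9 ± 4.64 CPM in Mff_Cre libraries (SD, n = 3), followed by vEC_1 with 8.44 ± 1.31 CPM in WT. These 3 steps did not overlap between libraries, and further steps down did. Sema3g and Efnb2 thus declined in a graded way from pre-HE through aEC to vEC_1.

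In Bmx and Nkx2-3, as in the mean levels of Gja5, EHT and not aEC came second. The next cluster in WT was vEC_4, with 1.92 ± 1.68 CPM for Bmx and 5.82 ± 3.05 CPM for Nkx2-3. Its WT libraries did not overlap with those of EHT for these genes, whereas they did for Gja5. Bmx was read in pre-HE at 136, 126, 156, 114 and 70.8 CPM in WT 1 to WT 5 and at 99.0, 115 and 115 CPM in Mff_Cre 1 to 3. Its EHT level was 7.66 ± 1.65 CPM in WT (SD, n = 5) and 5.41 ± 1.10 CPM in Mff_Cre libraries (SD, n = 3). In aEC only 7 Bmx UMIs were counted over all 8 libraries, so that its pre-HE level was 374-fold that of aEC and 16.8-fold that of EHT.

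Nkx2-3 was the member whose EHT level came closest to its pre-HE level. It was read in pre-HE at 241, 271, 272, 191 and 167 CPM in WT 1 to WT 5 and at 233, 134 and 221 CPM in Mff_Cre 1 to 3. In EHT it was read at 51.1, 48.9, 41.0, 56.7 and 51.0 CPM and at 75.5, 68.8 and 30.5 CPM in the same order. Pre-HE stood 3.98-fold above EHT over all libraries, while aEC held 15 Nkx2-3 UMIs in the 5 WT libraries and 0 in the 3 Mff_Cre libraries.

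Tm4sf1 and Htra1, a membrane protein and a secreted protease, had little signal outside pre-HE. Tm4sf1 was read in pre-HE at 794, 845, 927, 538 and 541 CPM in WT 1 to WT 5 and at 445, 483 and 469 CPM in Mff_Cre 1 to 3. Its next highest cluster was vEC_4, with 25.3 ± 3.45 CPM in WT (SD, n = 5) and 22.4 ± 5.99 CPM in Mff_Cre libraries (SD, n = 3). In aEC it was 6.33 ± 2.32 CPM and in vEC_3 10.8 ± 2.23 CPM in WT, and from vEC_3 down to EHT the WT libraries of neighboring clusters overlapped.

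Htra1 varied most between pools. It was read in pre-HE at 304, 210, 324, 186 and 45.1 CPM in WT 1 to WT 5, the last from 7 UMIs in 16 cells, and at 109, 139 and 141 CPM in Mff_Cre 1 to 3. Elsewhere it reached 5.95 ± 2.65 CPM in WT aEC (SD, n = 5) and 2.12 ± 1.12 CPM in WT vEC_4. WT 5 had the lowest pre-HE level among the WT libraries for 5 of the 8 members and the highest for 1, Efnb2.

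**Figure D1:**
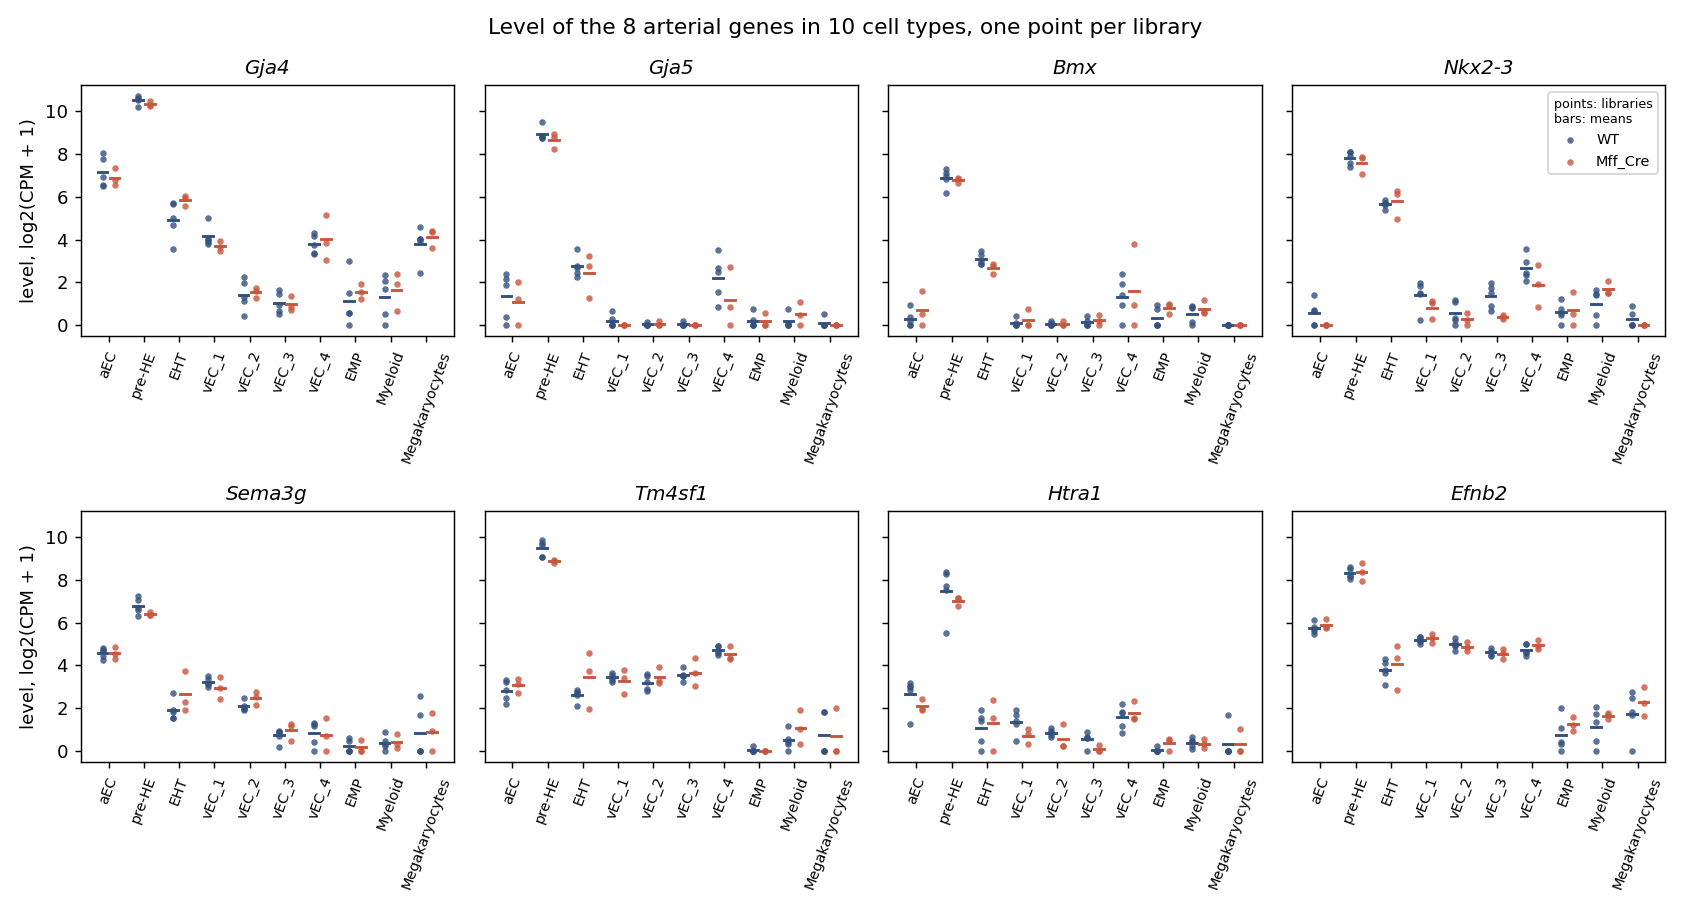
Level of each gene on the log2(CPM + 1) scale (vertical axis) in the 10 cell types (horizontal axis), with one point per library, WT in blue and Mff_Cre in red, and bars at the means. All 8 genes are highest in pre-HE. By mean level, Gja4, Sema3g, Htra1 and Efnb2 come second in aEC, Gja5, Bmx and Nkx2-3 in EHT, and Tm4sf1 in vEC_4. In WT, the libraries of the second cluster overlap with those of vEC_4 for Gja5 and for Htra1.

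All 8 members had a lowest pre-HE library above the highest library of each of the other 9 cell types, a pattern shown by 2.14% of the 9759 genes that reached 10 CPM in some cell type. The choice of members fixed this, and nothing is read from it. Taken pair by pair, the share of all genes with pre-HE above every library of the other cluster was 5.58% for aEC, 11.1% for EHT, 8.45% for vEC_1 and 5.67% for vEC_4. Of the CPM summed over the 10 cell types in WT, pre-HE held 97.2% ± 1.11 for Gja5, 92.2% ± 5.56 for Htra1, 91.4% ± 1.91 for Bmx and 91.1% ± 2.71 for Tm4sf1 (SD, n = 5 each). The share was 86.1% ± 3.80 for Gja4 and 77.9% ± 6.18 for Nkx2-3, and it was smallest for Sema3g with 72.1% ± 6.99 and Efnb2 with 62.6% ± 4.71. On the log2(CPM + 1) scale, the mean WT difference between pre-HE and the second cluster ran from 2.16 ± 0.44 for Nkx2-3 over EHT to 6.20 ± 0.72 for Gja5 over EHT.

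Other arterial genes behaved in part like the members. A list of 20 further genes was taken as arterial, among them Notch receptors and ligands. In it, 20 of 20 had their highest mean WT level in pre-HE, beside 26.3% of all genes that reached 10 CPM. All pre-HE libraries lay above all aEC libraries for 11 of 20, and above all EHT libraries for 18 of 20. The list was chosen with earlier results of these data known, so nothing is read from these counts. Hey2, a Notch target, was at 106 ± 41.6 CPM in WT pre-HE and 4.59 ± 2.08 CPM in aEC, and Vegfc, a growth factor, at 216 ± 23.4 and 12.9 ± 7.51 CPM (SD, n = 5). Dkk2, a Wnt inhibitor, was at 69.8 ± 13.5 and 0.39 ± 0.42 CPM.

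Apart from Vegfc, the genes of the study's arterial score that are not among the 8 members were shared more evenly with aEC. The Notch ligand Dll4 was at 136 ± 41.7 CPM in pre-HE and 46.5 ± 12.2 in aEC, and the ligand Jag1 at 134 ± 48.5 and 50.3 ± 10.6 CPM in WT (SD, n = 5). The receptors Notch1 and Notch4 were at 174 ± 67.8 and 71.2 ± 27.4 CPM in pre-HE, against 69.8 ± 10.4 and 34.9 ± 6.32 CPM in aEC. Nrp1, a co-receptor for growth factors and semaphorins, was at 949 ± 100.0 and 243 ± 26.3 CPM, and Epas1, a hypoxia-regulated transcription factor, at 200.0 ± 24.0 and 46.8 ± 13.7 CPM.

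The members' relatives did not share the pattern as a group. Of 11 relatives, 7 reached 10 CPM, and 2 of these, the connexin Gjc1 and the semaphorin Sema3f, had their highest mean WT level in pre-HE. For Gjc1 this was within the spread, with 77.9 ± 22.1 CPM in pre-HE and 75.0 ± 5.40 CPM in vEC_3. Sema3f was at 13.7 ± 2.34 CPM in pre-HE and 3.91 ± 1.97 CPM in aEC. In WT, the protease Htra3 was higher in aEC (64.2 ± 12.6 CPM) than in pre-HE (1.41 ± 2.09 CPM; SD, n = 5). The mean WT level of the connexin Gja1 was also higher in aEC (59.5 ± 8.55 CPM) than in pre-HE (32.0 ± 23.7 CPM). In single pre-HE libraries, however, Gja1 was at 70.8 CPM in WT 5 and at 64.3, 81.4 and 44.2 CPM in Mff_Cre 1 to 3. Ephb4, the receptor of Efnb2, peaked in vEC_4 with 76.9 ± 10.6 CPM and was read at 49.4 ± 15.9 CPM in pre-HE. None of the 5 venous genes peaked in pre-HE.

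Non-member genes were ranked by how closely their mean WT levels over the 10 cell types followed the average pattern of the members, among 3222 genes with at least 50 CPM in pre-HE. The nearest were Smad6 (r = 0.99), an inhibitor of BMP signaling, and Tmem100 (r = 0.99), a membrane protein of arterial endothelium, at 121 ± 43.6 and 657 ± 58.7 CPM in WT pre-HE. In aEC they were at 8.65 and 5.95 CPM. Cenpt, Gnpda2, Tmed4, Decr1, S100a11, Vegfc, Cr1l and Dag1 followed, with r between 0.96 and 0.98, although some of them were spread over all clusters: Gnpda2 was at 61.9 CPM in pre-HE and 36.7 CPM in aEC. The members' own r with that average ran from 0.85 for Efnb2 to 0.98 for Htra1. These values are over 10 cell types and are given as a description.

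Whether single cells carried the members together was read after thinning each cell at random to 5000 UMIs, which left out 13 of the 248 pre-HE cells, all Mff_Cre, and 101 cells in all. Of the 235 pre-HE cells left, 197 (83.8%, exact 95% interval 78.5% to 88.3%) held a UMI of at least 4 members. Outside pre-HE this held for 12 of 485 EHT cells (2.47%), 6 of 1500 aEC cells (0.4%) and 5 of 1345 vEC_4 cells (0.372%). In vEC_1, vEC_2 and vEC_3 it held for 0 of 2832, 0 of 2695 and 0 of 2477 cells, which allows shares of up to 0.106%, 0.111% and 0.121%. So 89.5% of the 220 cells with at least 4 members were labelled pre-HE. Because the clusters were drawn from the same RNA counts, these shares are a description, and intervals and limits cover counting error only. Between libraries, the share of pre-HE cells with at least 4 members ran from 62.5% in Mff_Cre 2 to 100% in WT 3.

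Few cells carried the whole set at this depth. Of the 235 thinned pre-HE cells, 7 held all 8 members and 27 held 7, and the median was 5. At full depth 45 of 248 cells (18.1%) held all 8, with 24.6% of WT and 3.90% of Mff_Cre cells, whose libraries were shallower. The mean number per thinned pre-HE cell was 5.29 ± 0.43 in WT (SD, n = 5, 4.83 to 5.82) and 4.66 ± 0.75 in Mff_Cre libraries (SD, n = 3, 3.79 to 5.13), and the ranges overlapped. It was 0.61 ± 0.12 in WT aEC and 0.60 ± 0.19 in WT EHT.

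The members differed in how many pre-HE cells held them. After thinning, a Gja4 UMI was found in 95.7% ± 3.74 of WT pre-HE cells, Gja5 in 84.7% ± 8.72, Tm4sf1 in 79.2% ± 10.9 and Efnb2 in 75.6% ± 9.14 (SD, n = 5 libraries). Nkx2-3 was found in 61.9% ± 9.76, Htra1 in 49.4% ± 20.4, Sema3g in 42.8% ± 8.22 and Bmx in 39.7% ± 6.23. Without thinning these WT shares were 100% for Gja4, 97.5% for Gja5, 84.5% for Tm4sf1, 93.3% for Efnb2, 77.3% for Nkx2-3, 68.4% for Htra1, 65.6% for Sema3g and 65.8% for Bmx, at a median of 12884 UMIs per cell.

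Free RNA can place a UMI in cells that do not express a gene, so the shares were set beside those of Myeloid cells, a cluster outside the endothelium. Whether Myeloid cells express any member themselves was not tested. In thinned WT Myeloid cells the members were found in 0% to 0.664% of cells, at a median of 39173 UMIs before thinning. In WT aEC, at a median of 18343 UMIs, Gja4 was found in 23.0% ± 8.83, Efnb2 in 19.1% ± 4.22 and Sema3g in 11.5% ± 3.24 of cells. Tm4sf1 and Htra1 were found in 3.25% ± 2.06 and 2.78% ± 2.21 of them. Gja5, Nkx2-3 and Bmx were found in 1.05% ± 0.73, 0.26% ± 0.35 and 0.13% ± 0.29 of aEC cells. In WT Myeloid cells the same genes were found in 0.13% ± 0.18, 0.17% ± 0.24 and 0.056% ± 0.13. The aEC values of Nkx2-3 and Bmx exceeded their own Myeloid values by less than their SD. In WT EHT, Nkx2-3 was found in 23.7% ± 5.49 and Gja4 in 15.7% ± 8.03 of cells.

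**Figure D2:**
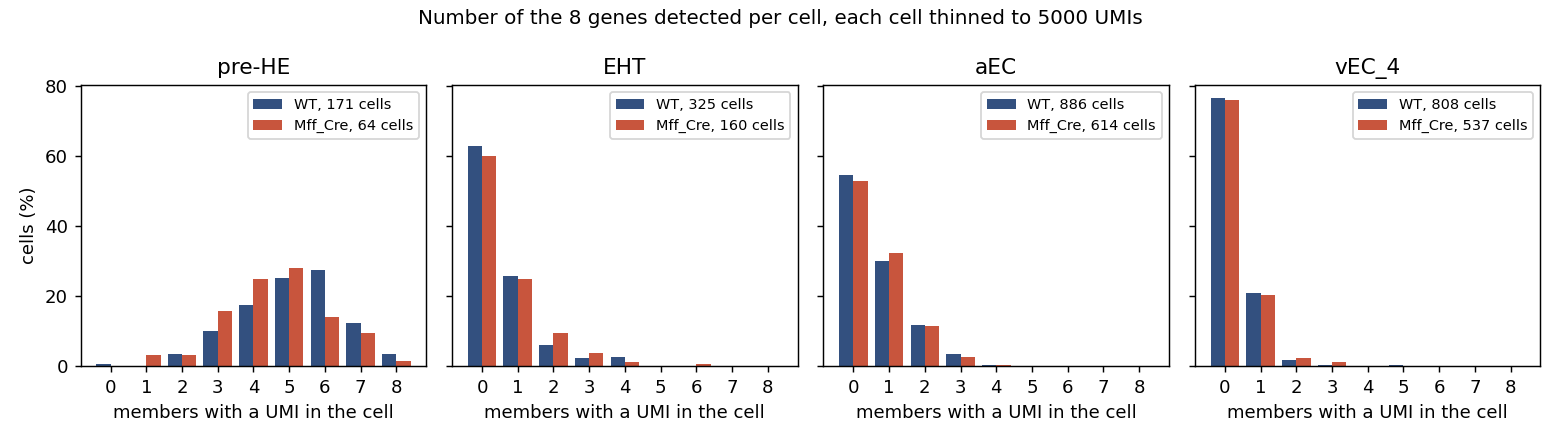
Share of cells (vertical axis, percent) by the number of the 8 genes with a UMI in the cell (horizontal axis), after thinning each cell to 5000 UMIs, in pre-HE, EHT, aEC and vEC_4, with WT in blue and Mff_Cre in red. Pre-HE cells center on 5 genes, whereas most cells of the other 3 clusters hold none or 1.

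The cells outside pre-HE that held at least 4 members were 23 in number, with 0 doublet calls among them. The 12 in EHT came from 6 libraries, and 11 held Gja4, 10 Efnb2, 8 Nkx2-3 and 6 Bmx after thinning. The blood transcription factor Runx1 had a UMI in 10 of these 12 cells (83.3%) and in 87.9% of the other EHT cells, while Ptprc, which encodes the blood protein CD45, had one in 1 of 12 (8.33%) and in 38.7% of the others. The others had a higher median of 18205 UMIs, against 13288 for the 12.

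The 6 such aEC cells held Gja4 in 6 and Efnb2 in 5 cases, and Nkx2-3 in 0. Their CD44 tag count, recorded in 5 of them, had a median of 5 (2 to 19), against 3 in other aEC cells. The 5 such vEC_4 cells, from 5 libraries, all held Gja4, Gja5 and Tm4sf1. A UMI of the venous gene Nr2f2 was found in 3 of these 5 cells, against 91.3% of the other vEC_4 cells. The 5 cells had a median of 23343 UMIs, against 11981 in other vEC_4 cells. Both of them with a recorded CD44 tag had a count of 85, against a median of 3.

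Within pre-HE the measured correlations differed between pairs of members. Across the 248 cells, correlations of log-normalized levels were computed within libraries (each library centered on its mean), so that pairs share cells and depth but not library. Nkx2-3, Tm4sf1 and Htra1 went together: r was 0.41 for Nkx2-3 with Htra1, 0.40 for Nkx2-3 with Tm4sf1 and 0.36 for Tm4sf1 with Htra1. In the 4 libraries with at least 20 pre-HE cells, these 3 pairs gave 12 values of r, all above 0, from 0.26 to 0.68. As detection after thinning, r was 0.22 to 0.26.

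The same 3 genes were found together when cells were counted. Of the 123 thinned pre-HE cells with a Nkx2-3 UMI, 58.5% also had one of Htra1 and 85.4% one of Tm4sf1, against 31.2% and 58.9% of the 112 cells without. Of the 171 cells with a Tm4sf1 UMI, 52.6% had one of Htra1, against 26.6% of the 64 without.

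The connexin and guidance genes gave weaker values. Gja5 had r of 0.27 with Sema3g and 0.24 with Efnb2, and over the 6 pairs of Gja4, Gja5, Sema3g and Efnb2, r ran from -0.06 to 0.27 with a median of 0.17. Between these 4 genes and Nkx2-3, Tm4sf1 and Htra1, the 12 pairs had r from -0.17 to 0.12 with a median of -0.09, and Bmx had r from -0.08 to 0.17 with the other members. In counts this sparse, values of that size are not read as relations, nor as their absence, because counting noise draws r toward 0. The 2 groups of genes were drawn after these values were seen.

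**Figure D3:**
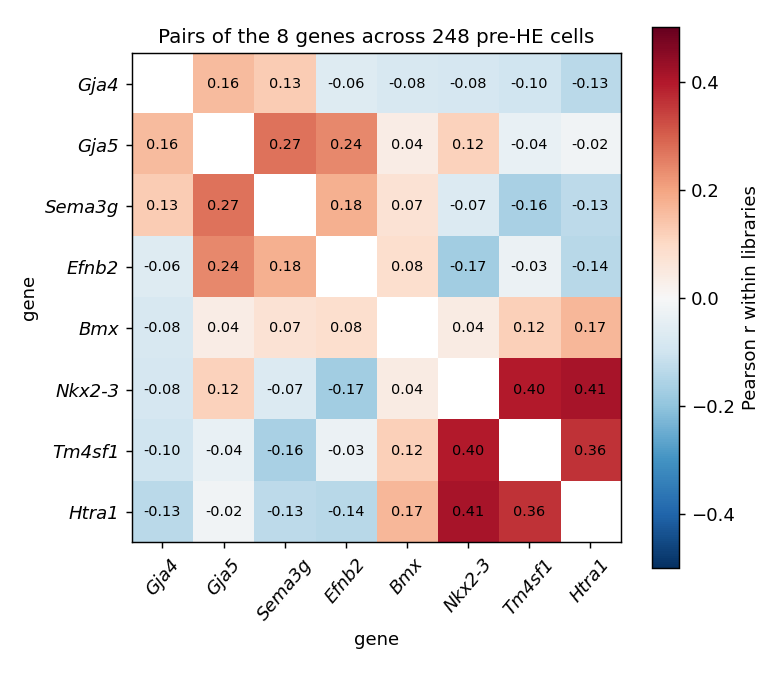
Pearson correlation, within libraries, of the log-normalized levels of each pair of the 8 genes (both axes) across 248 pre-HE cells, from blue (negative) to red (positive). Nkx2-3, Tm4sf1 and Htra1 form the block with the highest values, 0.36 to 0.41, while their values with Gja4, Gja5, Sema3g and Efnb2 lie between -0.17 and 0.12.

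Other readouts of the same pre-HE cells were set beside the members. The CD44 surface tag, recorded in 93 pre-HE cells of 4 libraries, had an r of 0.46 with Tm4sf1 and 0.45 with Nkx2-3 (log scale, within libraries), and from -0.13 to 0.24 with the other 6 members. In the single libraries, of 15 to 33 cells each, both genes were lowest in Mff_Cre 3 (0.18 each) and highest in WT 5 (0.60 each). The sum of the other 5 tags had r of 0.25 with Tm4sf1 and 0.42 with Nkx2-3, so for Nkx2-3 the tags in general gave a value near that of CD44.

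Pre-HE cells with at least 4 members were also set beside those with 2 or 3, of which there were few. The median CD44 tag count was higher in the first in all 4 libraries, with 43 over 14 cells against 1.5 over 2 in WT 5, 50 over 21 against 22.5 over 4 in Mff_Cre 1, 43 over 15 against 24 over 7 in Mff_Cre 2 and 22.5 over 14 against 5 in a single cell of Mff_Cre 3. The means ran the same way except in Mff_Cre 2, where they were 49.5 and 66.6, the latter over 7 cells that ranged from 1 to 189. In aEC the mean tag count was 1.98 to 5.37 in these 4 libraries, and aEC cells with 2 or 3 members had 2.61 to 5.77. The transcript Acta2, a smooth muscle actin that was among the mural markers detected in pre-HE, had an r of 0.28 with Tm4sf1 and from -0.18 to 0.08 with the other 7 members.

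The comparison of Mff_Cre with WT asked whether loss of Meis1 in endothelium changed these genes. In pre-HE 0 of the 8 members, all tested, passed an adjusted p under 0.1 by edgeR or by DESeq2, where edgeR called 0.489% of 3682 genes. The fitted log2 fold change was below 0 for 7 members and above 0 for Efnb2 (0.15, SE 0.21), with a median of -0.21 against -0.00063 over all genes tested. An unadjusted p under 0.05 was reached by 2 members, Tm4sf1 and Htra1, and by 263 of the 3682 genes.

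Tm4sf1 differed by -0.59 on the log2 scale (SE 0.22, adjusted p = 0.476 by edgeR's quasi-likelihood test). Its WT libraries, 538 to 927 CPM, all lay above its Mff_Cre libraries, 445 to 483 CPM, which 4.47% of the genes that reached 10 CPM in some cell type did in either direction. Htra1 differed by -0.72 (SE 0.35, edgeR adjusted p = 0.689), and its groups overlapped through WT 5. The level of the mural list in pre-HE also separated the genotypes, as given above, and its part in these values was not tested.

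Both values rested on which WT libraries were used. Without WT 5, Tm4sf1 (-0.66, edgeR adjusted p = 0.0859) and Htra1 (-0.91, edgeR adjusted p = 0.0488) passed the threshold. Over all genes tested in pre-HE, edgeR then called 79, against 18 with all libraries. With WT 5 as the only WT library, of a depth and tag panel like those of the Mff_Cre libraries, the log2 fold change was -0.18 for Tm4sf1 and 1.52 for Htra1, and it was above 0 for 5 of the 8 members. WT 5 is also the library with the high venous markers in pre-HE, and their part in these values was not tested. Genotype and depth cannot be told apart in the other 4 WT libraries. The other 6 members lay between -0.32 (Sema3g, SE 0.26) and 0.15 (Efnb2) in the comparison of all 8 libraries, which is of the order of their standard errors.

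**Figure D4:**
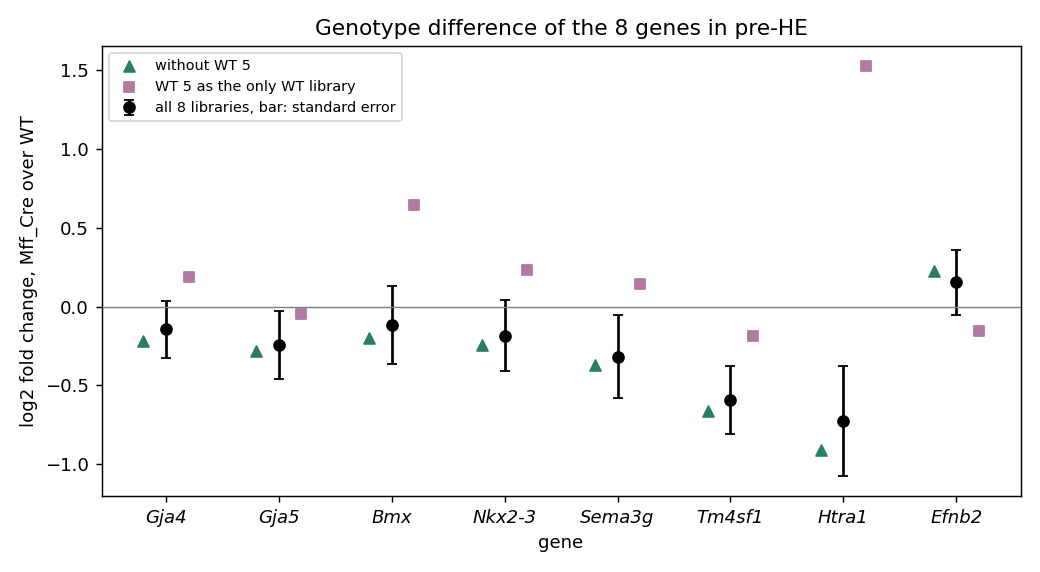
Log2 fold change of each gene (vertical axis, Mff_Cre over WT) in pre-HE for the 8 genes (horizontal axis), from all 8 libraries with standard errors (black), without WT 5 (green) and with WT 5 as the only WT library (purple). Tm4sf1 is at -0.59 and Htra1 at -0.72 with all libraries, and Htra1 is at 1.52 against WT 5 alone.

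In the other clusters fewer members had enough counts to be tested. In aEC 0 of 5 passed, where edgeR called 0% of 9540 genes, although 1000 of them had an unadjusted p under 0.05. DESeq2 called 11 genes and 0 members there, and 0 members had an unadjusted p under 0.05. Htra1 was at -0.78 (SE 0.44, edgeR adjusted p = 0.548) and Gja4 at -0.38 (SE 0.30, edgeR adjusted p = 0.679) there. In EHT 0 of 3 passed by edgeR or DESeq2, where edgeR called 0.127% of 8670 genes, and 1 had an unadjusted p under 0.05, as did 823 of all genes tested. Gja4 stood at 10.6 to 51.6 CPM in WT and 47.2 to 64.6 CPM in Mff_Cre EHT, which is 0.76 on the log2 scale (SE 0.34, edgeR adjusted p = 0.504). After thinning each cell to 5000 UMIs the difference was -0.015.

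In vEC, the sum of vEC_1 to vEC_4, 0 of 7 members passed by edgeR or DESeq2, where edgeR called 0.0164% of 12205 genes. Nkx2-3 was at -1.30 on the log2 scale (SE 0.50, edgeR adjusted p = 0.255) and Htra1 at -0.84 (SE 0.36, edgeR adjusted p = 0.286), the 2 members with an unadjusted p under 0.05, which 1996 of all genes tested had. Both are low there, with Nkx2-3 at 5.82 CPM or less on average in every vEC cluster. Efnb2, at 23.4 to 35.4 CPM on average in the WT vEC clusters, differed by 0.064 (SE 0.098).

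The difference between genotypes was also compared between pre-HE and aEC, as an interaction. By edgeR or DESeq2, 0 of the 8 members passed, where edgeR called 0.05% of 10007 genes, and 2 members, Tm4sf1 and Nkx2-3, were under an unadjusted p of 0.05, as were 489 of all genes tested. Tm4sf1 had an interaction of -0.97 on the log2 scale (SE 0.33, edgeR adjusted p = 0.860), with 6.33 ± 2.32 CPM in WT aEC and 7.51 ± 1.96 CPM in Mff_Cre aEC. For Nkx2-3, whose aEC counts were 0 in all Mff_Cre libraries, and for Bmx, with 7 aEC UMIs in all, the fitted interaction depends on the value added to low counts and is not given. The other 5 members lay between -0.24 and 0.34.

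Other arterial genes were read from the same test. Of the 20 other arterial genes, 16 were tested in pre-HE and 0 passed by edgeR, with a median log2 fold change of -0.17, 5 above and 11 below 0. Epas1 had the smallest p among them (-0.49, SE 0.22, edgeR adjusted p = 0.656). Of the relatives, the connexin Gja1 was at 1.12 (SE 0.41, edgeR adjusted p = 0.480) in pre-HE.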

How the data were processed

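Per the labels, libraries were made from pools of 2 to 5 embryos with a 10x Genomics kit that reads transcript ends, and the submitters' processing notes name Cell Ranger 3.0.2 and build mm10. The deposited table holds raw UMI counts (unit: counts, not normalized) per gene and cell, and antibody tag counts, for 15168 cells. The authors had kept cells with more than 2000 genes and under 10% mitochondrial content, integrated the libraries, and deposited the cluster names used here. Total counts were 20484881 to 79429129 per library. The 8 members and the gene lists were chosen with earlier results of these data known.

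Counts were summed over the cells of a library and cluster. Levels are CPM of these sums, the smallest being Megakaryocytes of WT 3 with 5 cells, and the tests used sums of at least 10 cells. Genotypes (5 WT against 3 Mff_Cre libraries) were compared on all genes by edgeR (version 4.0.16, under R 4.3.3; TMM, filterByExpr, quasi-likelihood F test, two-sided), with Benjamini-Hochberg adjustment and a threshold of 0.1, without a block. The interaction of genotype with cluster (pre-HE over aEC) had the library as a block. Labels do not say whether pools share parents, so p-values measure the spread between these pools. The tests were checked on simulated counts. Pearson correlations within pre-HE used log(1 + UMIs per 10000). Shares carry exact Clopper-Pearson intervals at 95%, and the limit given for a share of 0 is that of 3 counts. Scrublet in scanpy 1.11.5 called 83 cells (0.55%) doublets, 0 of them pre-HE, which were kept and left out in an alternative. Genes named are the 8 members, the 10 genes nearest to their average pattern, 7 arterial score genes and 11 relatives. Those named outside this rule are Hey2, Dkk2, Runx1, Ptprc, Nr2f2 and the marker genes. One marker list is not reported here. Gene positions and promoters are from RefSeq, GRCm38.p6. Alternatives were RLE factors, DESeq2 1.42.0, Bonferroni adjustment, a threshold of 0.05, no filter, sums of at least 5 or 20 cells, thinning, a depth covariate, the Mff_Cre libraries against WT 5 alone, the replicate number as a block, and each library left out. Other calculations and figures were made in Python 3.11.15, with scipy 1.17.1, pandas 2.3.3, matplotlib 3.10.9 and numpy 2.4.6.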

Additional observations from a re-analysis of the deposited data

Results flagged for a closer look

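Among 24 sets of 5 WT libraries (8 genes in aEC, pre-HE and EHT), 3 had a library far from the other 4, and chance alone marks about 1 in 20. Gja5 in pre-HE was at 714 CPM in WT 2, against 428 to 466 CPM in the other WT libraries. Sema3g in EHT was at 5.47 CPM in WT 4, against 1.88 to 2.71 CPM. Htra1 in aEC was at 1.35 CPM in WT 5, against 6.22 to 7.93 CPM, and WT 5 was also the lowest WT library for Htra1 in pre-HE, at 45.1 CPM.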

How the results depend on the processing

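The number of members passing in pre-HE, 0 with all libraries, became 2 (Tm4sf1 and Htra1) without WT 5 and was 0 to 2 over the libraries left out. In EHT it became 1 (Gja4, 0.73, edgeR adjusted p = 0.0804) with no filter. The number of all genes called with no filter is not given here, so nothing is read from this 1 member. The replicate numbers were checked as pairs: deviations of same-numbered libraries correlated from -0.13 to 0.27 over 12 pairs and clusters, so the numbers were not taken to pair the pools. With the replicate block, in which WT 4 and WT 5 have no partner and so carry no weight, 2 members passed in pre-HE (Tm4sf1 -0.80, edgeR adjusted p = 0.00212, and Htra1 -1.03, edgeR adjusted p = 0.00262), 1 in EHT (Gja4 0.91, edgeR adjusted p = 0.0223) and 0 in the others. The WT libraries that keep weight with the block all differ from the Mff_Cre libraries in depth and tag panel. Genotype and depth therefore cannot be told apart in these values, and their cause was not tested. Over the alternatives, genes called among all genes ranged from 2 to 146 in pre-HE (18 as reported, DESeq2 9), 0 to 752 in aEC (0, DESeq2 11), 0 to 496 in EHT (11, DESeq2 43), 0 to 2466 in vEC (2, DESeq2 264) and 0 to 8 for the interaction (5, DESeq2 1). The largest counts came with the block, which gave 146, 752, 496 and 2466, and without WT 5, which gave 79, 408, 261 and 1647.

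Directions of log2 fold changes turned under several alternatives. With median UMIs per cell as a covariate, pre-HE values became 0.24 for Gja4, 0.11 for Gja5, 0.60 for Bmx, 0.44 for Nkx2-3, 0.20 for Sema3g, 1.11 for Htra1 and -0.059 for Efnb2. With WT 5 as the only WT library they became 0.19 for Gja4, 0.64 for Bmx, 0.23 for Nkx2-3, 0.14 for Sema3g, 1.52 for Htra1 and -0.16 for Efnb2. In aEC the covariate gave 0.28 for Gja4, 0.26 for Sema3g, -0.16 for Tm4sf1 and 0.81 for Htra1, WT 5 alone gave 0.44 for Gja4, 0.12 for Sema3g and -0.26 for Tm4sf1, and Sema3g also turned to 0.031 with thinning and 0.024 with the block. In EHT thinning turned Gja4 to -0.015. In vEC Sema3g turned to -0.13 with thinning, Tm4sf1 to -0.34 with the covariate, Gja4 to 0.16 with the block, and Gja4, Tm4sf1 and Efnb2 to 0.19, -0.088 and -0.051 with WT 5 alone. The interaction turned for Efnb2 with RLE factors (0.025), for Gja5, Sema3g, Htra1 and Efnb2 with sums of at least 20 cells (-0.067, 0.11, -0.072 and 0.13), for Gja5 and Htra1 with thinning (-0.24 and -0.79), and for Gja4, Sema3g and Tm4sf1 with WT 5 alone (-0.24, 0.074 and 0.098).

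Over the libraries left out, the values that turned ranged from -0.35 to 0.060 (Nkx2-3) and -0.092 to 0.36 (Efnb2) in pre-HE, -0.21 to 0.14 (Sema3g) in aEC, and -0.025 to 0.54 (Nkx2-3) in EHT. In vEC they ranged from -0.61 to 0.18 (Gja4), -0.13 to 0.31 (Sema3g), -0.22 to 0.26 (Tm4sf1) and -0.048 to 0.12 (Efnb2), and for the interaction from -0.038 to 0.43 (Gja4), -0.24 to 1.84 (Gja5) and -0.22 to 0.10 (Efnb2). The difference of Bmx between pre-HE and EHT in WT, 3.78 on the log2(CPM + 1) scale, was 3.27 as a mean over cells and 3.39 after thinning. The mean number of members per WT pre-HE cell, 5.29, was 6.52 without thinning, 4.24 at 3000 UMIs and 3.58 when 2 UMIs were required. Depth limits the values: 7 UMIs lie behind Htra1 in WT 5 pre-HE.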
